A study of Caenorhabditis elegans with 2 samples.

Results

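The genes described here are the translation factors and tRNA synthetases of *Caenorhabditis elegans*, examined in LIN-11 ChIP-seq of whole L2 larvae, the second larval stage. They were chosen by name: protein-coding genes of the Ensembl WBcel235 annotation whose name begins with eif-, iff-, ife-, ifg-, eef- or etf-, or is a single letter followed by ars-1 or ars-2. The rule found 70 genes of 19973 protein-coding genes on the nuclear chromosomes. Of these, 39 are translation factors and 31 are tRNA synthetases, and no annotated gene carries an etf- name. The set was taken up with the deposited signals in view, since each gene was scored on the strongest region in its promoter window against other genes of the same lists. Counts and signals of the set are therefore given as descriptions, with no test.

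The samples form 1 group of 2 biological replicates of strain OP62, genotype unc-119(ed3) III with the transgene array wgIs62, which makes LIN-11 with GFP and FLAG at its C terminus. The GFP-FLAG tag is stated for replicate 1, and both replicates carry the same strain label. Males and females were pooled, the labels give no second condition, and the control alignments behind the region lists were not analysed here. Replicate 1 is labelled as stock of the submitting laboratory and replicate 2 as CGC stock. LIN-11 is a LIM homeodomain factor known from vulval, uterine and neuronal cells, and DNA of the whole animal was used, so no region can be assigned to a cell type. Each replicate gave a list of 30000 candidate regions on ce11, as did the pooled reads, and the authors' optimal list held 1917 peaks, which were the 1917 pooled regions of highest signal. The pooled list is labelled as holding peaks and background, so a candidate outside the optimal list may be background. Signals are the authors' own values per region, of unstated scaling, and are set side by side only within a list. Read depth is not given in the sources used here.

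Protein synthesis starts when initiation factors bring the initiator tRNA, the messenger RNA and the small ribosomal subunit together. Elongation factors then deliver charged tRNAs to the ribosome and move it along the message. The tRNA synthetases charge each tRNA with its amino acid, in the cytosol or in mitochondria. Because every growing cell needs them, these genes are usually counted as housekeeping genes.

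A gene was called bound if its promoter window, the 1000 bp before and the 200 bp after any of its protein-coding transcript starts, held an optimal summit. By this measure 18 of the 70 genes were bound, and 55 had any pooled candidate in the window, so the bound share of genes with a candidate was 32.7%. Over all 8186 genes with a candidate the share was 20.5%, and over all protein-coding genes it was 8.39%, against 25.7% of the 70. The median of the strongest pooled signal was 18.6 over the 55 genes and 11.1 over the 8131 other genes with a candidate. The bound genes divided unevenly over the classes: 15 of 35 translation factors with a candidate (42.9%) and 3 of 20 tRNA synthetases (15%). Among the 100 strongest pooled regions were promoters of 7 of the 55 genes (12.7%), beside 1.55% of all genes with a candidate. These contrasts are the ones that brought the set forward, so nothing further is read from them.

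**Figure D1:**
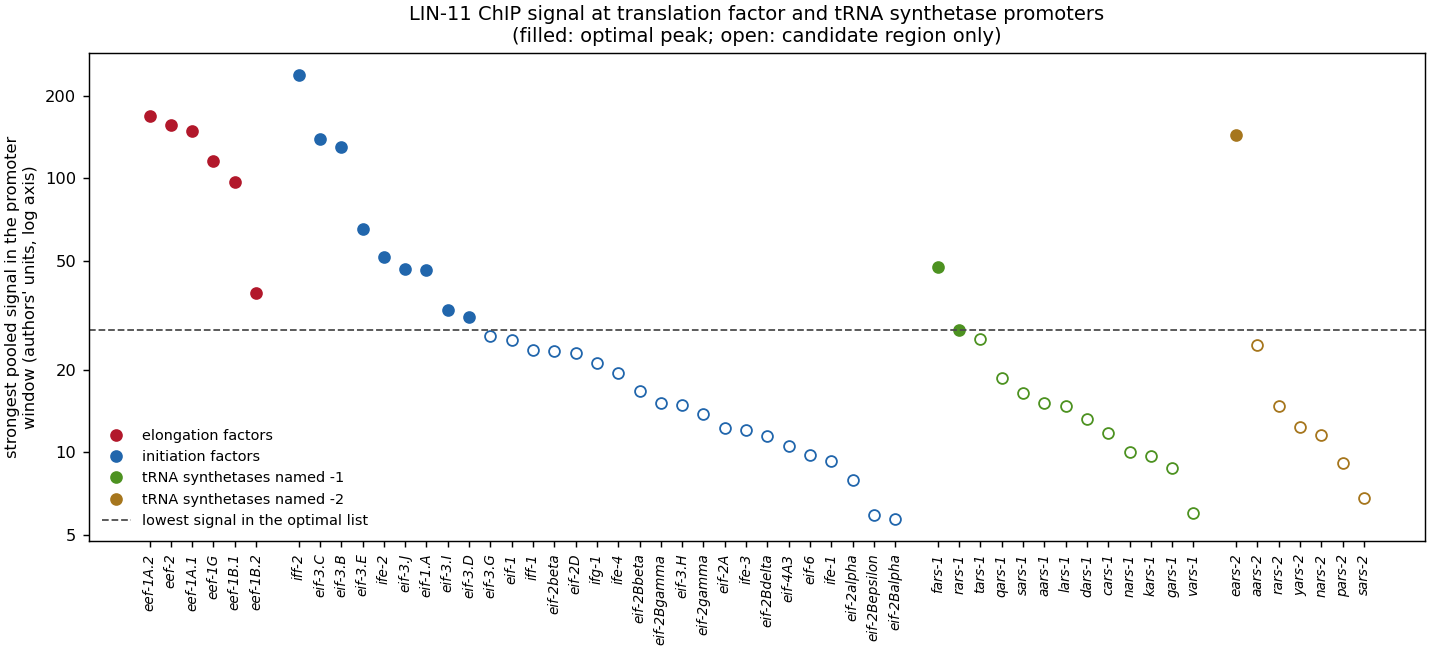
The strongest pooled LIN-11 signal in the promoter window (vertical, authors' units, log axis) is plotted for the 55 genes with a pooled candidate, coloured by class, with filled points for genes with an optimal peak. All 6 elongation factors of the set (eef- names) are filled, the highest point is *iff-2* at 237, and most tRNA synthetases lie below the dashed line at 27.8, the lowest signal of the optimal list.

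The summit sequences of 6 of the 8 bound genes of highest pooled signal are shown, because they are the DNA on which the strongest regions of the set are centred; those of *eef-2* and *eif-3.C* are not printed. Each runs 5′ to 3′ on the strand of the gene and covers up to 50 bp on each side of the summit, cut where an annotated exon begins. The *iff-2* stretch is II:8561386-8561486 (minus strand), that of *eef-1A.2* X:7823217-7823317 (plus), that of *eef-1A.1* III:6972058-6972158 (minus), that of *ears-2* IV:390469-390547 (minus), that of *eif-3.B* II:14795119-14795219 (plus) and that of *eef-1G* V:10965629-10965718 (plus), all on ce11. Capitals mark matches on either strand to the GAGA element GAGAG, the homeodomain core TAAT and the 6-mer CAAACA, and where matches overlap or touch they form a single run.
iff-2: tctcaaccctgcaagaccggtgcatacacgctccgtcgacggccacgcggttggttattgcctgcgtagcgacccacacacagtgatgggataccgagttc
eef-1A.2: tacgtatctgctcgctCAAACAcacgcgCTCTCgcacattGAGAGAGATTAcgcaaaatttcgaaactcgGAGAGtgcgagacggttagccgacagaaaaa
eef-1A.1: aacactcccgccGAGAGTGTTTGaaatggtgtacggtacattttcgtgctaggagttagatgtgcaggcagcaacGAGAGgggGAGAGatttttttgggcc
ears-2: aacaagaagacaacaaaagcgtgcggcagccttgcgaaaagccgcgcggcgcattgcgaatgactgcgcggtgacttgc
eif-3.B: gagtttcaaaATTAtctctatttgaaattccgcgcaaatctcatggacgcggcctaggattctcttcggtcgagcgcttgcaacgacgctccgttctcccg
eef-1G: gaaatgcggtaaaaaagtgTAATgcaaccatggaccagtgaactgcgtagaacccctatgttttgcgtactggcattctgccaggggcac

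The stretches of *iff-2* and *ears-2* hold no match to any of these motifs. That of *eef-1A.2* holds several GAGAG matches, an ATTA (TAAT on the other strand) and CAAACA, and that of *eef-1A.1* holds GAGAG and CAAACA. The *eif-3.B* and *eef-1G* stretches each hold a single TAAT core.

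The elongation factors of the set are the 6 genes with an eef- name. All 6 had a candidate and all 6 were bound, beside 20.5% of all genes with a candidate, and since these signals chose the set nothing is read from that count. They include both genes for eEF1A, the GTPase that carries charged tRNA to the ribosome, the genes for the eEF1B exchange factor that reloads it with GTP, and the gene for eEF2, which moves the ribosome along. *eef-1A.2* (X:7823654-7825769, plus strand) had its peak at X:7823105-7823428 with the summit 387 bp upstream of the start. Its signal was 169 and its rank 26 in the pooled list, with 82.2 (rank 7) in replicate 1 and 88.5 (rank 68) in replicate 2. The second eEF1A gene, *eef-1A.1* (III:6970026-6971712, minus strand), had a 97-bp region at III:6972041-6972137 with the summit 396 bp upstream. Its pooled signal was 149 (rank 46), with 71.0 (rank 14) in replicate 1 and 78.1 (rank 93) in replicate 2. Both summits of this pair lay in intergenic sequence, at nearly the same distance upstream of the gene.

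*eef-2*, the eEF2 gene (I:9163531-9166952, plus strand), had its peak at I:9163453-9163592, with the summit 14 bp upstream of a start. The pooled signal was 156 (rank 35), with 63.5 (rank 24) in replicate 1 and 89.5 (rank 64) in replicate 2. *eef-1G*, the gamma subunit of eEF1B (V:10965719-10967922), had a 94-bp region at V:10965617-10965710 with a pooled signal of 116 (rank 111), 52.0 (rank 79) in replicate 1 and 62.9 (rank 182) in replicate 2. The genes *eef-1B.1* and *eef-1B.2*, annotated as beta or delta subunits, were further apart. *eef-1B.1*, with its peak at III:7973227-7973550 and its summit 3 bp before the start, had a pooled signal of 97.1 (rank 183), 35.9 (rank 227) in replicate 1 and 61.4 (rank 189) in replicate 2. *eef-1B.2*, at IV:15037016-15037339, was the weakest of the 6, with a pooled signal of 38.2 (rank 1243), 14.6 (rank 1504) in replicate 1 and 23.2 (rank 1283) in replicate 2. All 6 were among the 1917 strongest regions of each replicate. When each summit was given to the nearest transcript start only, *eef-1A.1* was no longer bound, since its summit lies nearer to the divergent gene *rfc-4*.

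**Figure D2:**
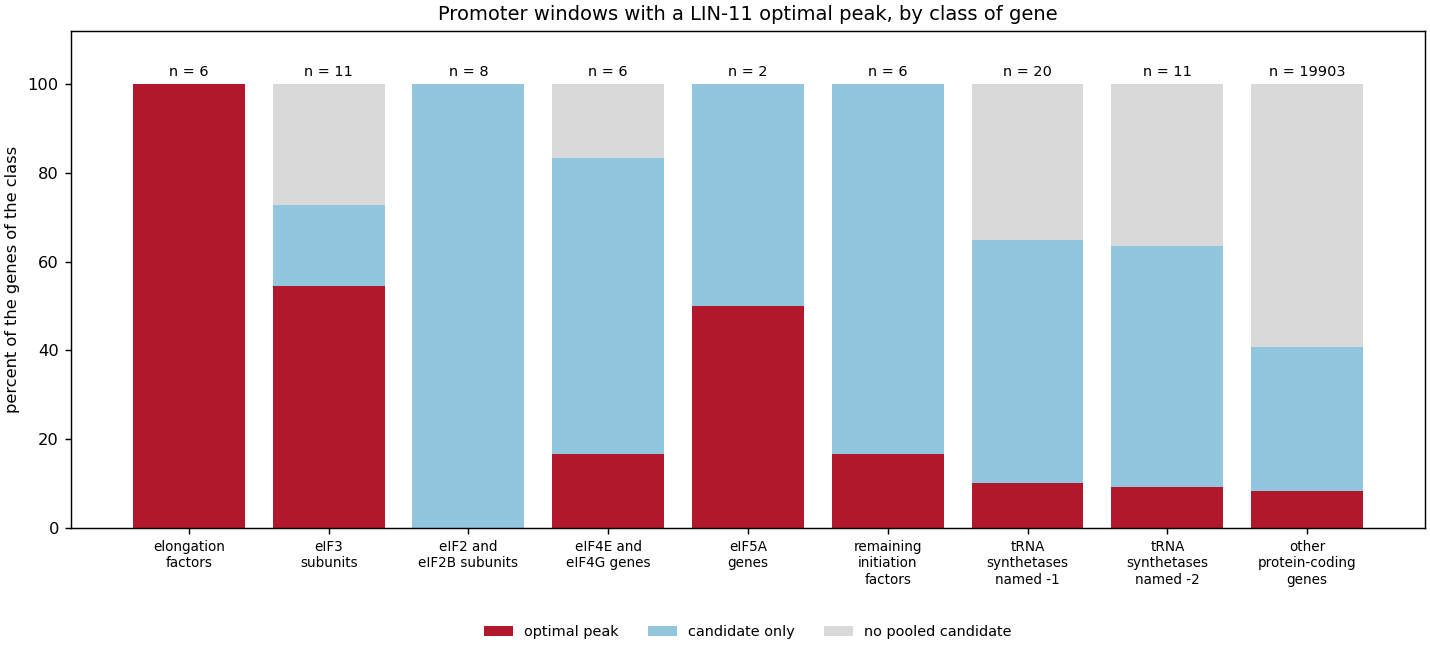
Bars give the percent of genes in each class with an optimal peak at the promoter, a pooled candidate only, or no pooled candidate, with the number of genes above each bar. The 6 elongation factors of the set (eef- names) are wholly in the first category, the 8 eIF2 and eIF2B subunit genes wholly in the second, and the 19903 other protein-coding genes stand at the right.

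Of the 33 initiation factor genes, 29 had a candidate and 9 of those were bound (31%, beside 20.5% of all genes with a candidate). The strongest was *iff-2*, which encodes eIF5A, the hypusine-containing factor that helps the ribosome form difficult peptide bonds. Its peak at II:8561355-8561522 had the summit 69 bp upstream of the start of the gene (II:8559375-8561367, minus strand), a pooled signal of 237 and rank 5. In replicate 1 the signal was 87.4 (rank 4) and in replicate 2 it was 154 (rank 6), so the region stood at the top of every list. The other eIF5A gene, *iff-1*, had no optimal peak. Its strongest pooled candidate, 192 bp upstream, had a signal of 23.5 (rank 2444), with 18.6 in replicate 1 (rank 985) and 6.59 in replicate 2 (rank 9182). The replicates thus placed *iff-1* very differently, inside the 1917 strongest regions of replicate 1 and far outside those of replicate 2.

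The eIF3 complex, the large scaffold that holds the small ribosomal subunit ready for the message, was represented by 11 subunit genes. Of these, 8 had a candidate and 6 of the 8 were bound (75%, beside the same 20.5% of all genes with a candidate). *eif-3.C* (I:9976426-9979662, minus strand) was the highest, with its peak at I:9979731-9980054, a summit 231 bp upstream and a pooled signal of 139 (rank 58). Its replicates stood apart, with 19.1 (rank 934) in replicate 1 and 121 (rank 17) in replicate 2. *eif-3.B* (II:14795404-14798235, plus strand), at II:14795007-14795330, had a pooled signal of 130 (rank 71), 35.9 (rank 226) in replicate 1 and 92.6 (rank 56) in replicate 2. *eif-3.E* (I:10640465-10642281, minus strand), at I:10642331-10642654, had a pooled signal of 65.4 (rank 467), 25.7 (rank 526) in replicate 1 and 38.7 (rank 551) in replicate 2. Only for the last of these 3 were the ranks in the replicates close together.

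The remaining bound eIF3 genes were weaker. *eif-3.J* had a pooled signal of 46.6 with its summit 920 bp upstream, in non-coding exon sequence of *slc-25A46*, while *eif-3.I* had 32.9 at 175 bp and *eif-3.D* 31.1 at 259 bp upstream. *eif-3.I* ranked 2481 in replicate 1 and 1367 in replicate 2, and *eif-3.J* ranked 2673 in replicate 1 and 642 in replicate 2, so neither was among the 1917 strongest regions of replicate 1. *eif-3.D* ranked 1563 in replicate 1 and 2037 in replicate 2, just outside the strongest 1917 of replicate 2. Of the unbound subunits, *eif-3.G* (26.6) and *eif-3.H* (14.9) had a pooled candidate. *eif-3.F*, *eif-3.K* and *eif-3.L* had none in the window in the pooled list or in either replicate.

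No gene for a subunit of eIF2, which carries the initiator tRNA, or of eIF2B, its guanine nucleotide exchange factor, was bound, and all 8 had a pooled candidate. With 20.5% of all genes with a candidate bound, a count of 0 among 8 genes says little about them. Their pooled signals ran from 5.71 at *eif-2Balpha* to 23.3 at *eif-2beta*, with a median of 12.6, close to the 11.1 of other genes with a candidate. Ranks in the pooled list ran from 2479 to 28169. None of the 8 had a candidate summit within 100 bp of the pooled one in both replicates, beside 41.1% of all genes with a candidate that did. That share includes the bound genes, and none of these 8 was bound. The genes for the separate factors eIF2A and eIF2D, *eif-2A* (12.2) and *eif-2D* (23.0), were not bound either.

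Of the cap-binding side, *ife-2*, an eIF4E gene, was bound, and the other 5 genes for eIF4E and eIF4G were not. Of the 6 genes, 5 had a pooled candidate, and the bound share of these was 20%, near the 20.5% of all genes with a candidate. The *ife-2* peak at X:382738-383061, with its summit 191 bp upstream, had a pooled signal of 51.4 (rank 794) and a replicate 2 signal of 43.8 (rank 421). Replicate 1 had no summit within 100 bp of it, and the strongest replicate 1 region in the window, 56 bp upstream of the start, had a signal of 10.6 and rank 2873. The eIF4G gene *ifg-1* had a pooled candidate of 21.2, no candidate in replicate 1 and a region of rank 1811 in replicate 2. The paralogues *ife-4* (19.4), *ife-3* (12.1) and *ife-1* (9.29) had weak pooled candidates, and *ife-5* had none.

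Among the rest, *eif-1.A*, which encodes the scanning factor eIF1A, was bound at IV:4810383-4810706 with a pooled signal of 46.2 (rank 955), 16.6 (rank 1211) in replicate 1 and 29.1 (rank 922) in replicate 2. *eif-1*, the gene for its partner eIF1, was not, at 25.6. *eif-6*, whose product keeps ribosomal subunits apart, had 9.77, and *eif-4A3*, better known from the exon junction complex than from initiation, had 10.5.

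The tRNA synthetases were bound in 3 of 31 cases, and 20 had a pooled candidate. The bound share of these 20 was 15%, beside 20.5% of all genes with a candidate. The highest was *ears-2*, annotated as the mitochondrial glutamyl-tRNA synthetase (IV:388686-390468, minus strand), with its peak at IV:390418-390567 and its summit 29 bp upstream. Its pooled signal was 144 (rank 52), with 51.6 (rank 81) in replicate 1 and 91.0 (rank 59) in replicate 2. *uncp-18*, annotated as encoding a syntaxin-binding protein, starts on the opposite strand 92 bp away, and the summit lay 63 bp upstream of its start. The summit between the pair is in the promoter window of each, and the lists cannot assign it to either gene.

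The other bound synthetase genes, *fars-1* for phenylalanine and *rars-1* for arginine, had summits near the far edge of the window. The *fars-1* summit lay 886 bp upstream of its start and 156 bp upstream of *rbm-5*, in non-coding exon sequence of T08B2.15. It had a pooled signal of 47.2 (rank 919), 18.4 (rank 1008) in replicate 1 and 29.4 (rank 911) in replicate 2. The *rars-1* summit lay 981 bp upstream of its start and 150 bp upstream of *rpb-8*, an RNA polymerase subunit gene on the same strand. With a pooled signal of 27.9 (rank 1909) it was the weakest bound gene of the set, and it ranked 4226 in replicate 1 and 1770 in replicate 2. When each summit was given to the nearest transcript start only, neither gene was bound, and *ears-2* was the 1 bound synthetase of 18 with a candidate (5.56%, beside 17.3% of other genes in that setting).

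Of the genes whose names end in ars-1, 2 of 13 with a candidate were bound (15.4%), and of those ending in ars-2, 1 of 7 (14.3%). Of all genes with a candidate 20.5% were bound, and with so few synthetases these shares say little about either group. Of the paralogues of bound synthetases, *ears-1* and *fars-2* had no pooled candidate and *rars-2* had 14.8 (rank 4939). The unbound synthetases with a candidate ran from *vars-1* at 5.97 to *tars-1* at 26.0. At the edge of the optimal list, whose lowest signal was 27.8, the genes just inside were *rars-1* (27.9), *eif-3.D* (31.1) and *eif-3.I* (32.9), and those just outside were *eif-3.G* (26.6), *tars-1* (26.0) and *eif-1* (25.6).

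The replicates were compared next. Of the 18 bound genes, 17 had a summit within 100 bp of the pooled summit in both replicate lists (94.4%, beside 93.2% of the 1657 other bound genes), the exception being *ife-2*. The pooled list was made from the same reads as the replicate lists. When the 1917 strongest regions of each replicate were taken by themselves, 13 of the 18 were in both, 4 in replicate 2 only (*eif-3.I*, *eif-3.J*, *ife-2* and *rars-1*) and 1 in replicate 1 only (*eif-3.D*). Of the 1657 other bound genes, 1108 were in both. Replicate 1 alone gave 17 genes of 51 with a candidate (33.3%, against 19.7% of all genes with a replicate 1 candidate), of which 14 were among the 18. Replicate 2 alone gave 18 of 55 (32.7%, against 20.1% of all genes with a replicate 2 candidate), of which 17 were among the 18. The genes that entered were *eif-3.G*, *iff-1* and *eif-2D* in replicate 1 and *ifg-1* in replicate 2.

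**Figure D3:**
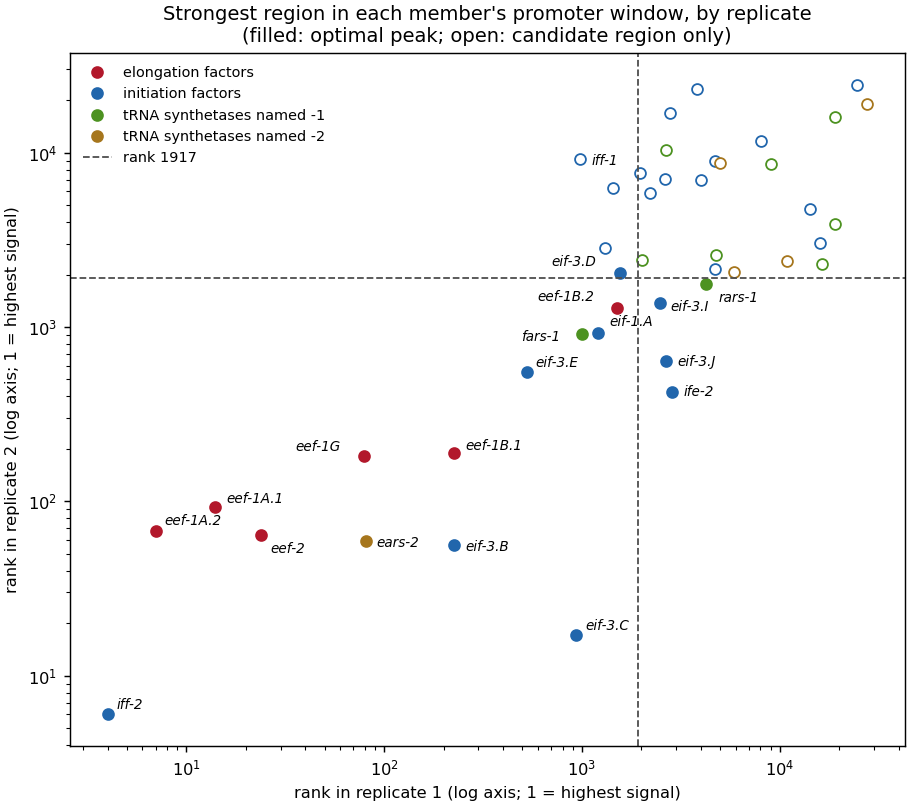
Each point is a gene with a candidate in both replicates, placed by the rank of its strongest promoter region in replicate 1 (horizontal) and replicate 2 (vertical), both on log axes where 1 is the highest signal; dashed lines mark rank 1917. *iff-2* lies at rank 4 and 6, *eif-3.C* stands apart at rank 934 and 17, and *iff-1* (open) is inside the line of replicate 1 only.

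The summits of bound genes lay upstream of the start in all 18 cases, at a median of 222 bp and between 3 and 981 bp. For the 1657 other bound genes the median was 238 bp upstream, and only 75 of them had a downstream summit. In 16 cases the summit was intergenic, beside 23 of the 37 unbound candidates of the set. In 2 it was in non-coding exon sequence of another gene, at *fars-1* and *eif-3.J*. No bound gene had a second optimal summit in its window, although 6 had a further pooled candidate there. None of the 18 summits was within 200 bp of an annotated tRNA, snoRNA or snRNA gene, beside 1 of the 37 unbound candidates. Neither these places nor further summits were counted for other bound genes, so nothing is read from them.

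Of the 18 summits, 12 were also in the promoter window of another protein-coding gene (66.7%, beside 894 of 1657 other bound genes, 54%), and 11 of these pairs were divergent. Among the 37 unbound candidates 16 had a divergent partner, and divergent pairs were not counted for other bound genes. At the 12 shared summits of bound genes the partner starts lay from 92 bp (*ears-2* and *uncp-18*) to 1042 bp (*fars-1* and *rbm-5*) away. At *eef-1A.1*, *eif-3.D* and *fars-1* the summit was nearer to the divergent partner, at 145 bp from *rfc-4*, 55 bp from R08D7.4 and 156 bp from *rbm-5*. At *iff-2* it was much nearer to the factor gene, 69 bp against 866 bp from F54C9.14, as at *eef-2* (14 bp, against 251 bp from *clsp-1*), *eef-1B.1* (3 bp, against 328 bp from *aco-2*) and *eef-1G* (40 bp, against 140 bp from *ctf-4*). The 6 bound genes with a window of their own were *eef-1A.2*, *eif-3.C*, *eif-3.B*, *ife-2*, *eif-3.J* and *eef-1B.2*.

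**Figure D4:**
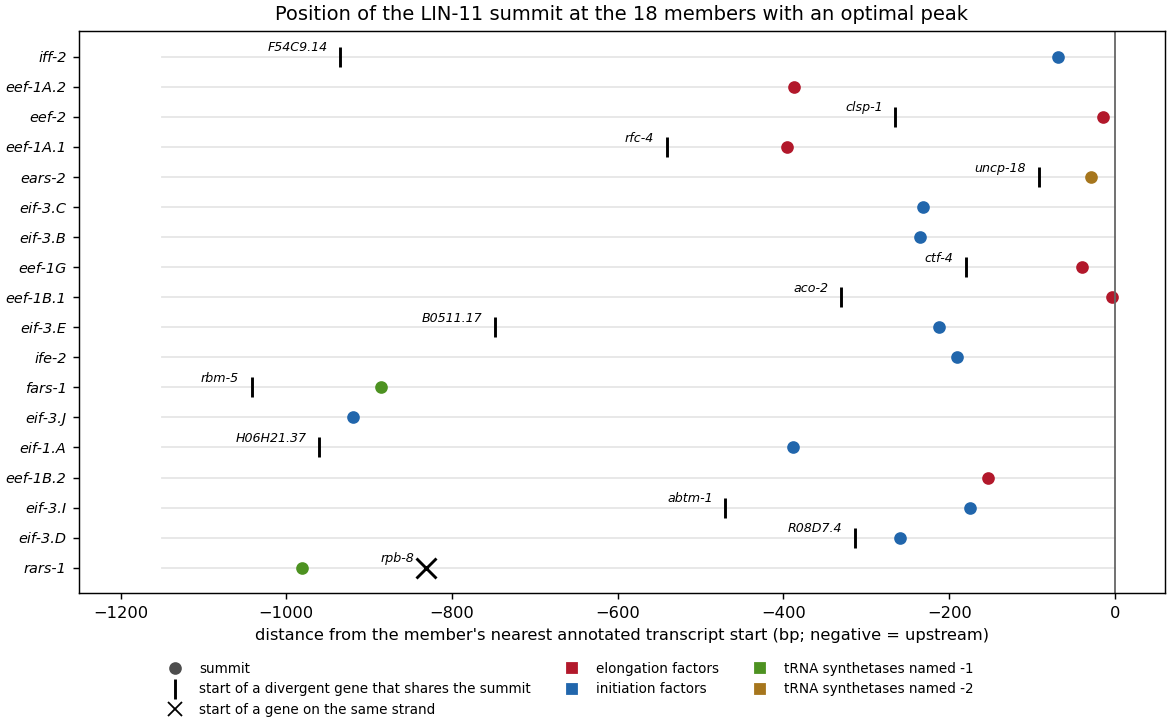
For each of the 18 bound genes, ordered by pooled signal from the top, the summit (point) is drawn by its distance in bp from the gene's nearest annotated transcript start at 0, with a bar at the start of a divergent gene and a cross at a same-strand gene that shares the summit. Most summits lie within 450 bp upstream of the start (15 of 18, beside 1222 of 1657 other bound genes), and those of *rars-1*, *eif-3.J* and *fars-1* lie 886 bp or more upstream.

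The regions at 5 of the 18 bound genes were narrower than the usual 324 bp, from 94 to 168 bp, at *iff-2*, *eef-2*, *eef-1A.1*, *ears-2* and *eef-1G*. This was 27.8%, beside 4.12% of 1189 other optimal promoter regions, and none of the 37 unbound candidates was narrower. All 5 were among the 8 bound genes of highest pooled signal.

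Motifs were counted in 101 bp centred on the summit, on both strands. The LIM homeodomain core TAATTA was at none of the 18 bound summits, at 1.18% of 1189 other optimal promoter summits and at 2.84% of 5805 other candidate promoter summits. Its shorter form TAAT, which every TAATTA also contains, was at 6 of 18 (33.3%), beside 31.3% of other optimal summits and 46.9% of other candidates. The genes were *eef-1A.2*, *eif-3.B*, *eef-1G*, *fars-1*, *eef-1B.2* and *eif-3.D*. The worm promoter element CTGCGTCT was at none of the 18, beside 10% of other optimal summits and 2.72% of other candidates. GAGAG was at 3 of 18 (16.7%), namely *eef-1A.2*, *eef-1A.1* and *rars-1*, beside 44% of other optimal summits and 22.2% of other candidates. The E-box CACGTG and the TATA box TATAAA were at none, beside 3.11% and 2.27% of other optimal summits, and the GC box GGGCGG was at 1, *eif-1.A* (5.56%, beside 9.08%). Within 100 bp on each side of the summit TAAT was at 14 of 18 and TATAAA at 3, so these counts hold for the shorter window. Finding a motif at 0 of 18 summits allows a share of up to 16.7%, taking 3 counts as the limit, so none of these absences differs from the other optimal summits by more than the count allows.

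Of the 983 6-mers found at the 18 summits, CAAACA was the most frequent, at 8 (44.4%), beside 10.8% of the 37 unbound candidates of the set, 14.1% of other optimal summits and 8.39% of other candidates. It was named after these counts were seen, and no test was made. The genes with CAAACA were *eef-1A.2*, *eef-2*, *eef-1A.1*, *eef-1B.1*, *ife-2*, *eif-3.J*, *eif-3.I* and *rars-1*, which include 4 of the 6 elongation factor genes. The match stands in capitals in the *eef-1A.2* and *eef-1A.1* stretches. GC content at bound summits had a median of 48.5% (38.6 to 59.4%), beside 50.5% at other optimal promoter summits and 43.6% at other candidates.

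Genes that act beside these factors but carry other names were taken from a list of 45, of which 36 matched an annotated name. A pooled candidate was found at 27 and an optimal peak at 13 (48.1%, beside 20.5% of all genes with a candidate). The list was chosen with earlier results of these data known, so nothing is read from the shares given here. The highest were *larp-1*, which encodes a La-related RNA-binding protein, at 174 (rank 23), *ifet-1*, the homologue of the eIF4E transporter, at 157 (rank 33), and *abcf-2*, an ABC-F ATPase gene, at 132 (rank 66). *clu-1* had 82.2, *larp-5* 65.2 and *gcn-1*, an activator of the eIF2 kinase pathway, 49.5, while *gcn-2*, the gene for the kinase itself, had 32.9. The release factor genes, here named *erfa-3* (54.5) and *erfa-1* (32.1), were bound, as were the poly(A)-binding protein genes *pab-1* (43.1) and *pab-2* (42.0), the ribosome recycling gene *abce-1* (29.7) and the mitochondrial elongation factor gene *gfm-1* (28.2). Of these 13 genes, 8 were among the 1917 strongest regions of both replicates (29.6% of the 27, beside 13.6% of genes with a pooled candidate in neither list). In replicate 1 *pab-2* ranked 3754, *abce-1* 11268 and *gfm-1* 15151, and in replicate 2 *erfa-1* ranked 2391 and *gcn-2* 3727, all outside the strongest 1917. *egl-45*, which encodes subunit A of eIF3 and carries no eif-3 name, had an unbound candidate of 25.4, and *inf-1*, the eIF4A gene, one of 7.54. The mitochondrial elongation factor genes *tufm-1* (22.1) and *tufm-2* (20.2) also had unbound candidates, and *tsfm-1* had no pooled candidate.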

How the data were processed

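ChIP-seq region lists of 2 replicates were used. The replicate lists and the pooled list derive, per the deposited notes, from ce11 alignments and a control alignment, and were the input to the irreproducible discovery rate (IDR) procedure behind the optimal list. No aligner, caller or IDR cutoff is named in the labels or notes. The authors' signal value per region (narrowPeak column 7) and summit offset (column 10) were read as deposited. Lists on ce10 were not used.

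Regions were ranked by signal within a list, and each summit was placed by adding its offset to the start. Genes came from Ensembl release 115 (WBcel235, the same assembly as ce11), and sequence from the RefSeq copy of that assembly. Summits were placed in promoter windows with Python 3.11.15 and NumPy 2.4.6, tested on planted summits. The members, lists and motifs were chosen with earlier results of these data known. Named were all bound members with the strongest in full, the unbound just outside the list, paralogues of bound members, and bound genes of the further list. Nothing was tested. Alternatives varied the window, the assignment, the peak threshold, the match distance, the sequence window and the replicates.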

Additional observations from a re-analysis of the deposited data

How the results depend on the processing

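The count of bound genes stayed between 13 and 20 in every alternative, beside 18 as reported, and leaving out a replicate gave 17 to 18, with 15 translation factors each time and 2 to 3 tRNA synthetases. The 13, among them 11 translation factors and 2 synthetases, came from asking for both replicates' strongest regions, an alternative chosen after seeing the data. As reported, the bound share of genes with a candidate was 32.7%, beside 20.4% of other genes. With 500 bp upstream and 100 bp downstream the shares were closer, 30% and 23.5%. They were 33.9% and 20.2% with 2000 bp upstream and 30.4% and 17.3% with the nearest start only. The stronger 50% of optimal peaks gave 25.5% and 11.7%, and asking for both replicates gave 23.6% and 13.6%. The synthetase count was 1 with the window of 500 bp upstream and 100 bp downstream and 1 with the nearest transcript start only, against 3; both settings drop *fars-1* and *rars-1* by construction. The median strongest pooled signal of the set was 16.6 with the short window, 19.4 with 2000 bp upstream, 14.8 with the nearest start only and 16.6 with the outermost start of each gene only, against 18.6, and 11.1 to 12.2 for other genes except 10.5 with the nearest start. It was not computed for single replicates, whose signals are on other scales. Nearest-start assignment gave 14 bound genes, without *eef-1A.1*, *eif-3.D*, *fars-1* and *rars-1*, and the stronger 50% of optimal peaks gave 14. A window of 2000 bp added *eif-2alpha* and *ife-3*. Summits of 17 and 18 bound genes matched in both replicates at 50 and 200 bp. Asking for both replicates, also chosen after seeing the data, left 8 of the 13 bound genes of the further list. Motif counts moved with the sequence window. Within 25 bp on each side TAAT was at 1 of 18 bound summits (5.56%, beside 11.4% of other optimal summits), GAGAG at 2 and GGGCGG at 0. Within 100 bp TAAT was at 14 (77.8%, beside 63%), TATAAA at 3 (16.7%, beside 11.1%), GAGAG at 5, GGGCGG at 2 and TAATTA at 1, while CTGCGTCT and CACGTG were at 0 in each window. No paired analysis was possible because there is a single group. Read depth is unknown, and ranks below the optimal list rest on weak signals.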

Other observations

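Optimal peaks outside the promoter window were sought in the gene bodies and up to 3000 bp upstream. A single one lay in a gene body, in an intron of *fars-1*, 1345 bp past its nearest start, with a pooled signal of 53.1 (rank 752), and it fell in the promoter window of the mitochondrial ribosomal protein gene *mrpl-23*. Upstream, *eif-6* had a peak of 97.4 (rank 181) at 2010 bp in the window of the tubulin gene *tba-2*, *ife-3* one of 61.9 (rank 533) at 1217 bp in that of B0348.10, and *eif-2alpha* one of 44.6 (rank 996) at 1803 bp in those of *phb-1* and Y37E3.8. All 4 peaks were thus in another gene's promoter window.

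Of the 15 genes with no pooled candidate in the window, 9 had one in a replicate list, at ranks from 6039 to 29192, and 6 had none in any list: *eif-3.F*, *eif-3.K*, *eif-3.L*, *fars-2*, *pars-1* and *wars-1*. Of these 15 genes, 2 had a candidate in both replicates, *ife-5* and *lars-2*.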
